A study of Rattus norvegicus with 14 samples.

Results

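The data described here are the levels of transthyretin (Ttr) and 9 other genes that mark the choroid plexus, Igfbp2, Enpp2, Rarres2, Kcne2, Folr1, Prlr, Aqp1, Cldn2 and Foxj1, in RNA of the hippocampal subfield CA3. The arrays were Affymetrix RAE230A, and each of their probe sets is a group of short DNA probes that reads out a stretch of a transcript, or for some probe sets of several like transcripts. Every probe set whose annotation names 1 of these genes and no other was taken, which gave 15 probe sets for the 10 genes out of 15923 probe sets on the array. Of the 15, 5 lay above the cutoff for dim probe sets, a mean log2 level of 3.88 over all arrays, and entered the tests. These were the only probe sets of Ttr, Igfbp2, Rarres2 and Enpp2 and 1 of the 3 of Kcne2. The other 10 were dim, and 5 genes (Folr1, Prlr, Aqp1, Cldn2 and Foxj1) had no probe set above the cutoff. Ttr was selected on its measured difference between learning and control animals, so that difference and those of its companions are given as a description. A call on this contrast is printed beside them only for comparison with all probe sets, and nothing is read from it.

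There were 14 male Long-Evans rats, an outbred strain, aged 3 to 4 months and housed singly. Each group had 7 animals and each animal its own array. All of them, controls included, had earlier been trained in a standard water maze, and 2 to 3 weeks later they swam 8 trials, 8 min apart, in a maze at another site. In the learning group (LA) orienting cues were present and the visible platform kept its place. In the control group (CTL) the visible platform moved between trials and no informative cues were given. The platform was removed for a probe trial of 90 s in both groups 1 h after training. The animals were killed directly after it, and CA3 was microdissected from the hippocampus.

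The choroid plexus is a sheet of epithelium and vessels in the brain ventricles that makes cerebrospinal fluid, and a fold of it lies beside the hippocampus. Its epithelial cells make transthyretin in large amounts and release it into the fluid, where it carries thyroid hormone and, through retinol-binding protein, vitamin A. The same cells express the other genes listed here, but several of these are not restricted to them. Igfbp2 and Rarres2 are also made in the leptomeninges, the thin membranes that cover the brain, and Enpp2 is also made by oligodendrocytes. In tissue RNA, fewer cells of a type and less RNA per cell cannot be told apart.

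The 250 bases before the start site are shown for the 3 members whose levels the results turn on and for which the RefSeq promoter table of assembly GRCr8 held an entry. They are given because Igfbp2 and Rarres2 varied together in control animals and Ttr varied most among the members. Capitals mark the match to a searched motif.
Ttr (chr18:12218508-12218757, plus strand): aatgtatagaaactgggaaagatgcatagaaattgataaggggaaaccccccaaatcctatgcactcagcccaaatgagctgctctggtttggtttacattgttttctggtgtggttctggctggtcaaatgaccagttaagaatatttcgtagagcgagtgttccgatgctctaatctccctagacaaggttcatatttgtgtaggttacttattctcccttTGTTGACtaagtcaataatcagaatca
Igfbp2 (chr9:81864561-81864810, plus strand): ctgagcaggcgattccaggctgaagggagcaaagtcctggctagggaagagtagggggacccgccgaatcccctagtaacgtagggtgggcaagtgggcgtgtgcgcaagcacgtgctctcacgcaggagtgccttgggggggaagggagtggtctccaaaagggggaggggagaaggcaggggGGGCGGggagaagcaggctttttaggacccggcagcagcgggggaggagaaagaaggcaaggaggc
Rarres2 (chr4:78856409-78856658, minus strand): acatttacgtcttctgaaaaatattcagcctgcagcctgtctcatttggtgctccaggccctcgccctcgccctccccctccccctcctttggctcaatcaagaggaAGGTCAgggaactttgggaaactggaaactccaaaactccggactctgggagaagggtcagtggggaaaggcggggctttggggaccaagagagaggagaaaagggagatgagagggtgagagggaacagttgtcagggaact
Of the 10 genes, 5 had an entry in that table. Both strands were searched for the TATA box TATAAA, the GC box GGGCGG, the forkhead motif in its forms TGTTTAC and TGTTGAC, the nuclear receptor core AGGTCA and the bicoid motif TAATCC, and none of these motifs overlapped another in the printed windows. The Ttr window held TGTTGAC, 27 to 21 bases before the start, a motif class that 5.23% of 33360 rat promoter windows held. The Igfbp2 window held GGGCGG 66 to 61 bases before the start, as did 30.5% of all windows at some position. The Rarres2 window held AGGTCA 143 to 138 bases before the start, which 14.1% of all windows held. No searched motif occurred in more than 1 of these 3 windows. Base composition differed as well, with 40.4% G and C in Ttr, 64.0% in Igfbp2 and 54.8% in Rarres2, against a median of 51.6% over all windows. The Aqp1 window, of a gene whose probe sets were dim, held both TATAAA (30 to 25 bases before the start) and GGGCGG (87 to 82). These matches describe the letters of the windows and say nothing of which factors bind there.

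Most CA3 markers were bright on these arrays and most genes of a wider choroid plexus list were dim. Of 8 genes on the array that were fixed as CA3 pyramidal markers, 7 lay above the dim cutoff. The 3 brightest had mean log2 levels of 11.92 (Nptx1), 11.54 (Chgb) and 11.01 (Dkk3), and Socs2 was dim at 2.15. In a wider list of 34 choroid plexus genes 24 were on the array and 8 lay above the dim cutoff. Defining markers of its epithelium that lay below it, named after their values were seen, included Otx2 (mean log2 level 2.75), Kl (2.07), Sostdc1 (1.75), Tmem72 (3.13) and Krt8 (1.96). Genes of that list above the cutoff included Msx1 (4.72), Calml4 (4.54), Slc22a8 (4.06) and Trpm3 (3.99). Dim probe sets could not be read, so their levels do not show for which genes the choroid plexus label holds. As measures of RNA integrity, differences between 3' and 5' control probe sets were taken on the log2 scale. That of Gapdh was 0.51 ± 0.06 (SD, n = 7) in control and 0.45 ± 0.05 (n = 7) in learning animals (two-sided exact permutation test, p = 0.0443). Those of beta-actin (p = 0.460) and hexokinase (p = 0.281) were not distinguishable between groups by the same exact test. Control animal 5 had the highest 3'/5' difference for all 3 genes and the lowest median correlation with the other arrays, 0.989, where the other 13 lay between 0.992 and 0.994.

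Ttr, the thyroid hormone carrier of the fluid, was lower in the learning group, by 2.09 on the log2 scale. Among the 7 control animals its log2 level ran from 6.41 in animal 6 over a median of 7.06 to 9.07 in animal 2. Among the 7 learning animals it ran from 5.12 in animal 5 over a median of 5.23 to 6.56 in animal 4. Control animals 2 and 3, at 9.07 and 8.83, stood above the other 5 controls, which lay between 6.41 and 7.77. Learning animal 4 stood above the other 6 learning animals, which lay between 5.12 and 5.74, all of them below the lowest control. The groups overlapped only through learning animal 4, whose 6.56 exceeded the 6.41 of control animal 6. Group means were 7.55 ± 1.05 in control and 5.46 ± 0.53 in learning animals (SD, n = 7 each), a difference of -2.09 (SE 0.40, 95% interval -2.94 to -1.24) or 4.25-fold. Of 9520 probe sets tested with limma, 3.35% were called at a Benjamini-Hochberg adjusted p under 0.05, and those called with the lower level in learning animals made up 0.798% of the 9520. Of the 5 member probe sets tested Ttr was the 1 called, which its selection on this contrast had fixed and which therefore supports nothing. The pattern of at least 6 of 7 learning values below every control value occurred in 1.52% of the tested probe sets. The percentile of Ttr on each array, among all probe sets that are not controls, ran from 60.6 to 88.6 in control animals and from 50.2 to 62.1 in learning animals. With the Gapdh 3'/5' difference as a covariate the Ttr difference was -2.31.

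Animals of the same group differed in Ttr more than in nearly any other transcript. Its SD within groups was 0.83 on the log2 scale, the 14th highest of 9520 probe sets, whose median was 0.11. From the lowest to the highest animal this was a 6.29-fold range among controls and a 2.72-fold range among learning animals.

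**Figure D1:**
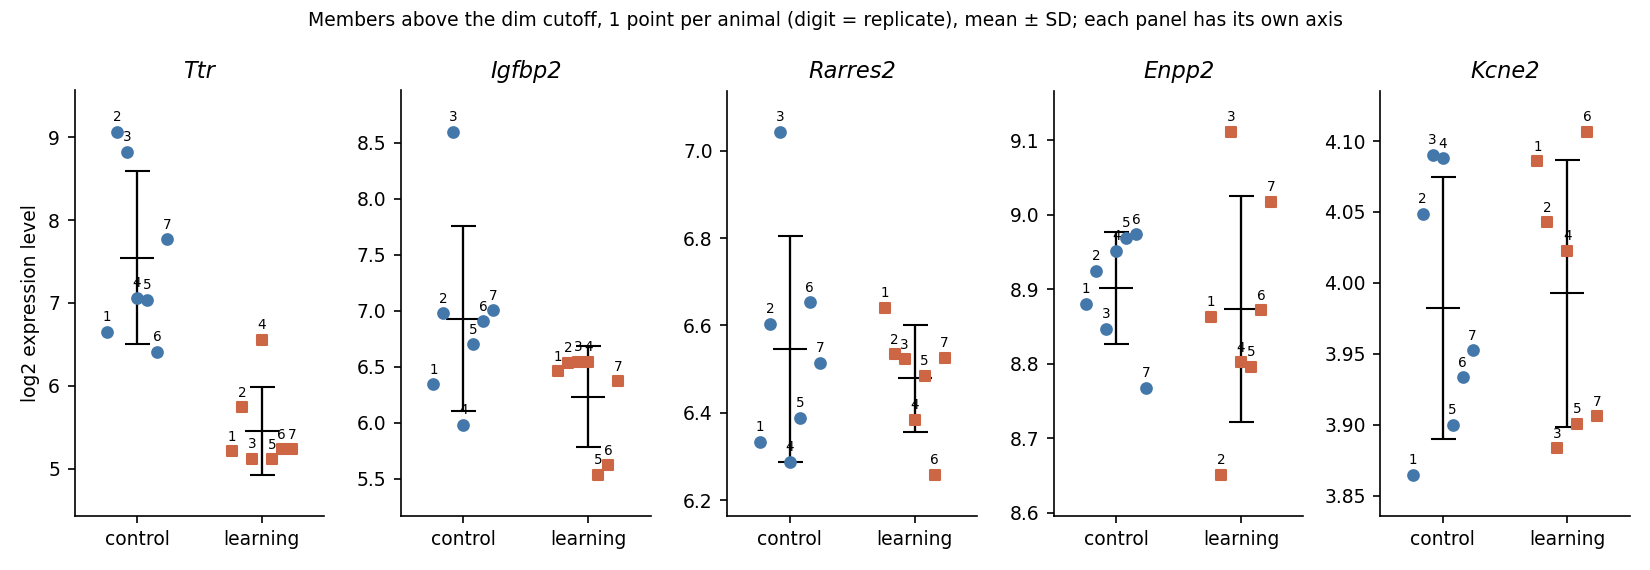
Log2 expression level (y axis, a separate scale in each panel) of the 5 member probe sets above the dim cutoff, with 1 point per animal labelled by its replicate number, control as blue circles and learning as red squares, and bars for the mean ± SD of 7 animals. In Ttr only learning animal 4 (6.56) reaches the control range, in Igfbp2 and Rarres2 control animal 3 (8.60 and 7.04) stands highest, and in Enpp2 and Kcne2 the groups overlap.

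Igfbp2, a secreted protein that binds insulin-like growth factors, had the second largest difference among the members, with overlapping groups. Its log2 level in control animals ran from 5.98 in animal 4 over a median of 6.90 to 8.60 in animal 3. In learning animals it ran from 5.54 in animal 5 over a median of 6.46 to 6.54, and animals 2, 3 and 4 all had 6.54 after rounding. Only learning animals 5 and 6, at 5.54 and 5.62, lay below every control, and only control animal 3 lay more than 1 unit above the control median. Group means were 6.93 ± 0.83 and 6.23 ± 0.45 (SD, n = 7 each), a difference of -0.70 (SE 0.32, 95% interval -1.38 to -0.02). This difference depended in part on control animal 3, since it was -0.42 (SE 0.22) without that animal and -0.36 (SE 0.23) without control animals 2 and 3. Its SD within groups, 0.67, was the 35th highest of those tested.

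Rarres2 encodes chemerin, a secreted attractant of immune cells. Its log2 level in control animals ran from 6.29 over a median of 6.51 to 7.04, the highest again in animal 3. In learning animals it ran from 6.26 over a median of 6.52 to 6.64. Apart from control animal 3, all animals lay within 6.26 to 6.65, and the groups overlapped throughout. The difference was -0.07 (SE 0.10, 95% interval -0.28 to 0.14).

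Enpp2 encodes autotaxin, a secreted enzyme that makes the signalling lipid lysophosphatidic acid. Its log2 level in control animals ran from 8.77 over a median of 8.92 to 8.97. In learning animals it ran from 8.65 over a median of 8.86 to 9.11, a wider range on both sides. The difference was -0.03 (SE 0.06, 95% interval -0.16 to 0.10). Control animals 2 and 3, the highest in Ttr, lay at 8.92 and 8.85, inside the range of the other controls.

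Kcne2 encodes a potassium channel subunit of the apical membrane of the choroid plexus. Its brightest probe set ran from 3.86 over a median of 3.95 to 4.09 in control and from 3.88 over a median of 4.02 to 4.11 in learning animals. It lay just above the dim cutoff and the groups overlapped fully, with a difference of 0.01 (SE 0.05, 95% interval -0.10 to 0.12). The name of this probe set carries the suffix x, which marks probes that may also match other transcripts. The remaining Kcne2 probe sets were dim, with means of 2.86 and 2.17 and differences of -0.01 and 0.00. At the cutoff itself, this Kcne2 probe set had a mean of 3.99 and was kept, and that of Foxj1 had a mean of 3.67 and was not.

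The 10 dim probe sets hardly varied. Over all 14 arrays their values spanned between 0.02 and 0.31 on the log2 scale, with a median span of 0.07, and their differences between groups lay between -0.03 and 0.01. They were those of Foxj1, the master factor of motile cilia (mean log2 level 3.67), of the prolactin receptor Prlr (3.09, 2.66 and 2.57), of the tight junction protein Cldn2 (2.90), of the water channel Aqp1 (2.87 and 1.94) and of the folate receptor Folr1 (2.73), besides the dim pair of Kcne2. Array values so close to the floor carry little information on the amount of RNA, so these probe sets show neither a difference nor its absence. The widest span among them was that of 1 Prlr probe set, whose highest value, 3.34, came from control animal 6.

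**Figure D2:**
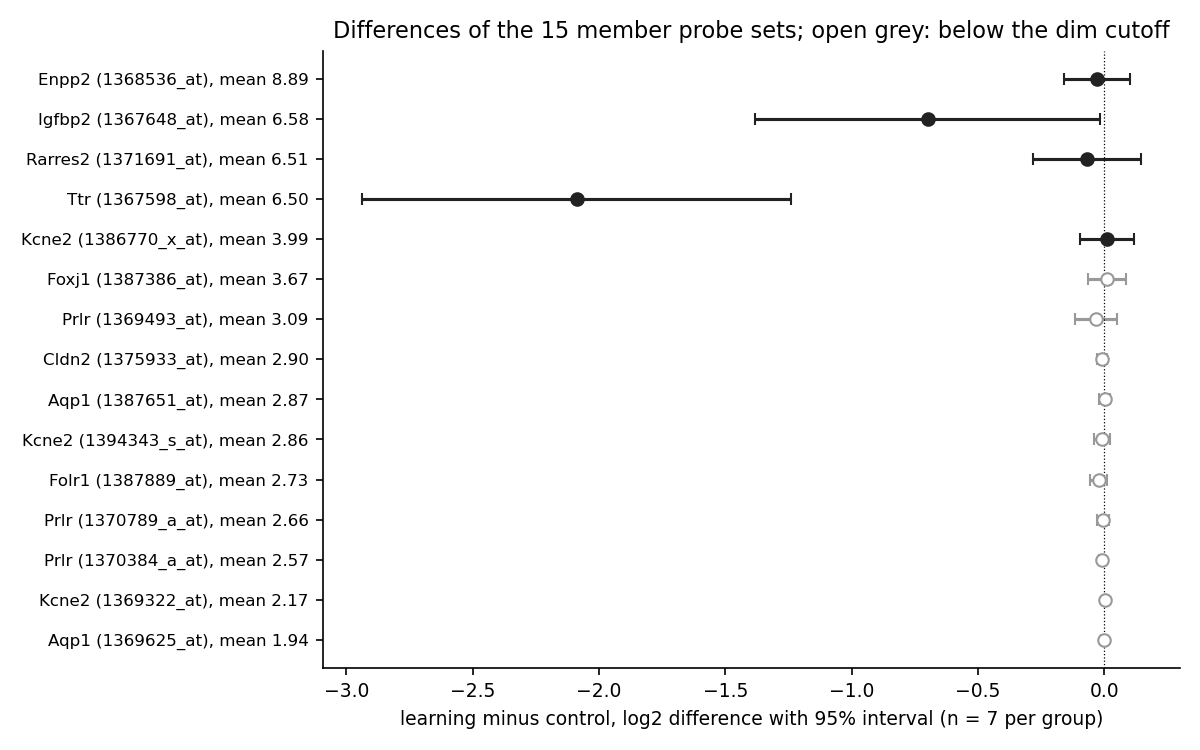
Learning minus control difference in log2 level (x axis) for the 15 member probe sets, with the 95% interval from limma (n = 7 per group), filled for the 5 tested probe sets and open grey for the 10 dim ones, ordered by mean level. Ttr lies at -2.09 and Igfbp2 at -0.70, and each other probe set lies between -0.07 and 0.01.

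Whether the other members followed Ttr from animal to animal was asked with the group difference removed, by a limma model with group and Ttr level, over the 9519 tested probe sets other than Ttr. The slope is the change in a probe set's log2 level per unit of Ttr. Igfbp2 had a slope of 0.48 (SE 0.17, adjusted p = 0.678), Rarres2 of 0.11 (SE 0.06, adjusted p = 0.773), Kcne2 of 0.06 (SE 0.03, adjusted p = 0.773) and Enpp2 of -0.05 (SE 0.04, adjusted p = 0.823). No member passed, and 0.021% of all probe sets did, 2 in number, while 646 or 6.79% had an unadjusted p under 0.05. As a description, the correlation with Ttr over 14 animals after subtraction of group means was 0.60 for Igfbp2, 0.51 for Kcne2, 0.44 for Rarres2 and -0.35 for Enpp2. A value of at least that of Igfbp2 was found in 209 probe sets, 2.20% of those tested, whose median was -0.00337. Without control animals 2 and 3 the values were 0.35, 0.28, -0.21 and -0.53 in the same order.

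Within the control group alone Igfbp2 correlated with Ttr at Pearson r = 0.65 (two-sided exact permutation p = 0.103) and Spearman rho = 0.57 (exact p = 0.20). Over the 15865 probe sets so compared in each group, the adjusted values were 0.659 and 0.721. Without control animals 2 and 3, the farthest from the median of Ttr, r was 0.22. In the learning group Igfbp2 gave r = 0.43 (exact p = 0.362) and rho = 0.32 (exact p = 0.498), adjusted 0.994 and 0.896, and r = 0.08 without animals 4 and 2. Rarres2 gave r = 0.61 in control (exact p = 0.144, rho = 0.29 with exact p = 0.556) and -0.27 in learning animals (exact p = 0.481, rho = -0.18 with exact p = 0.713). Its control value became -0.14 without animals 2 and 3. Leaving out control animal 3 alone lowered the slope over both groups to 0.23 (SE 0.15) in Igfbp2 and to 0.02 (SE 0.05) in Rarres2, whereas without control animal 2 the slopes were 0.70 (SE 0.19) and 0.14 (SE 0.08). The positive slope therefore rested mostly on control animal 3 in Rarres2 and in large part on it in Igfbp2. Without that animal alone, r with Ttr in control animals was 0.44 for Igfbp2 and 0.35 for Rarres2. Kcne2 gave r = 0.66 in control animals (exact p = 0.120, rho = 0.71 with exact p = 0.0881), or 0.27 without animals 2 and 3, and 0.29 in learning animals (exact p = 0.618, rho = 0.54 with exact p = 0.236). Enpp2 gave r = -0.39 in control (exact p = 0.372, rho = -0.57 with exact p = 0.20) and -0.47 in learning animals (exact p = 0.275, rho = -0.29 with exact p = 0.556). Over all 15865 probe sets none passed after adjustment in either group, the smallest adjusted p for r being 0.659 in control and 0.858 in learning animals by the exact permutation test. The slope on Ttr was not shown to differ between groups for any of these genes, each with an adjusted p of 1 in a limma interaction model that called 0 of 9519 probe sets (542 had an unadjusted p under 0.05).

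**Figure D3:**
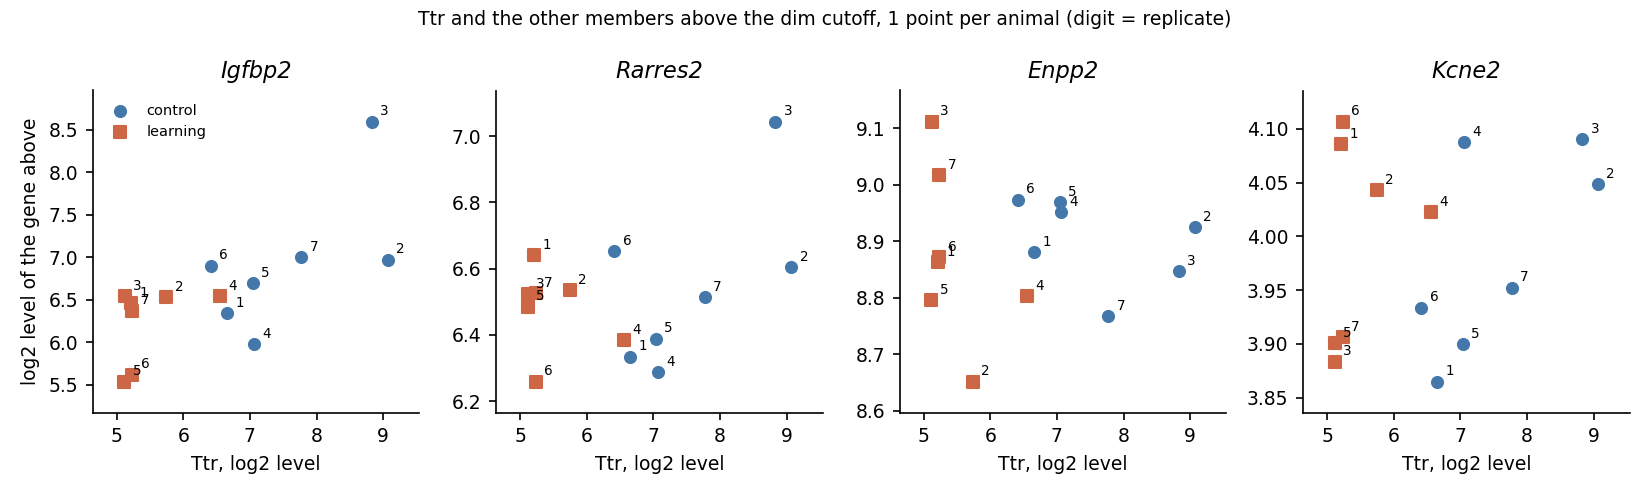
Log2 level of Igfbp2, Rarres2, Enpp2 and Kcne2 (y axes, separate scales) against the log2 level of Ttr (x axis), with 1 point per animal labelled by its replicate number. Control animal 3 is high in Ttr (8.83), Igfbp2 (8.60) and Rarres2 (7.04), while control animal 2, with Ttr at 9.07, has 6.97 in Igfbp2 and 6.60 in Rarres2.

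Among control animals, and over all animals with group means removed, Igfbp2 and Rarres2 had a higher correlation with each other than either had with Ttr. The difference between these correlations was not tested. In the control group they correlated at r = 0.96 (two-sided exact permutation p = 0.00119) and rho = 0.86 (exact p = 0.0238). Adjusted over all 15865 probe sets set against Igfbp2, these were 0.708 and 0.991. Without control animals 3 and 4, the farthest from the median of Igfbp2, r was 0.83. In the learning group r was 0.52 (exact p = 0.233) and rho 0.21 (exact p = 0.662), and r was -0.39 without animals 5 and 6. There Igfbp2 was not clearly closer to Rarres2, since with Ttr it had r = 0.43 and rho = 0.32, and r = 0.47 without animals 5 and 6. With group means removed the correlation over 14 animals was 0.87, the 2nd highest of the 9519 probe sets set against Igfbp2, while Ttr ranked 195th. Those ranked beside it were Lgals1 (0.88), a galectin, and Igf2 (0.85), a growth factor that Igfbp2 binds, and they were followed by Sult1a1 (0.85) and Cald1 (0.83). Control animal 3 was high in these as well, with log2 levels of 6.95 in Lgals1 and 9.36 in Igf2. These genes were named by their rank after their values were seen.

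The 10 named genes most like Ttr had correlations between 0.80 and 0.90 over the 14 animals after subtraction of group means. They were Colec12, Map3k12, Clic1, Fam171b, R3hdm2, Eps15l1, Galm, Arnt2, Gprc5b and Ipo5. Members were left out of this ranking, and the highest of the tested ones was Igfbp2 at 0.60. None of the 10 belongs to the wider choroid plexus list, and none was called between the groups. Colec12, a scavenger receptor of the collectin family, led with 0.90, and its log2 level had a slope of 0.38 on Ttr (SE 0.05, limma adjusted p = 0.0279). It was highest in control animals 3 (5.40), 2 (5.08) and 7 (4.94) and, of the learning animals, in animal 4 (4.85), while the other 10 animals lay between 4.19 and 4.47. Those 4 animals were also the highest of their groups in Ttr. Within groups r was 0.91 in control (exact p = 0.00853) and 0.88 in learning animals (exact p = 0.0367), with rho = 0.82 in each (exact p = 0.0341), none of which passed after adjustment (0.659 and 0.994 for r, 0.706 and 0.786 for rho). Without the 2 animals farthest from the median of Ttr, r was 0.77 in control and 0.62 in learning animals. The Colec12 difference between groups was -0.28 (adjusted p = 0.384), so it followed Ttr among animals of a group without being called between the groups.

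The call of Colec12 was not kept in every setting. It was kept in 14 of 23 alternatives, over which its adjusted p ran from 0.0174 to 0.998, and its slope stayed between 0.33 and 0.44 in all 23. It was lost without control animal 1 (adjusted p = 0.129), without control animal 3 (0.151), without learning animals 3, 4 or 6 (0.0609, 0.0639 and 0.0530) and without control animals 2 and 3 together (0.998, with an unchanged slope of 0.38), besides 3 settings of the model or filter. In the opposite direction Wdr59, Klhl12, Arsa, Bud23 and Msrb2 had the lowest correlations, between -0.89 and -0.81. Wdr59, of a complex that acts on the growth regulator TORC1, was called with a slope of -0.35 (SE 0.05, limma adjusted p = 0.0279), a call kept in 9 of 23 alternatives, over which its adjusted p ran from 0.0191 to 0.998. Its lowest log2 levels were those of control animals 2 (3.83) and 3 (4.08) and learning animal 4 (3.90).

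**Figure D4:**
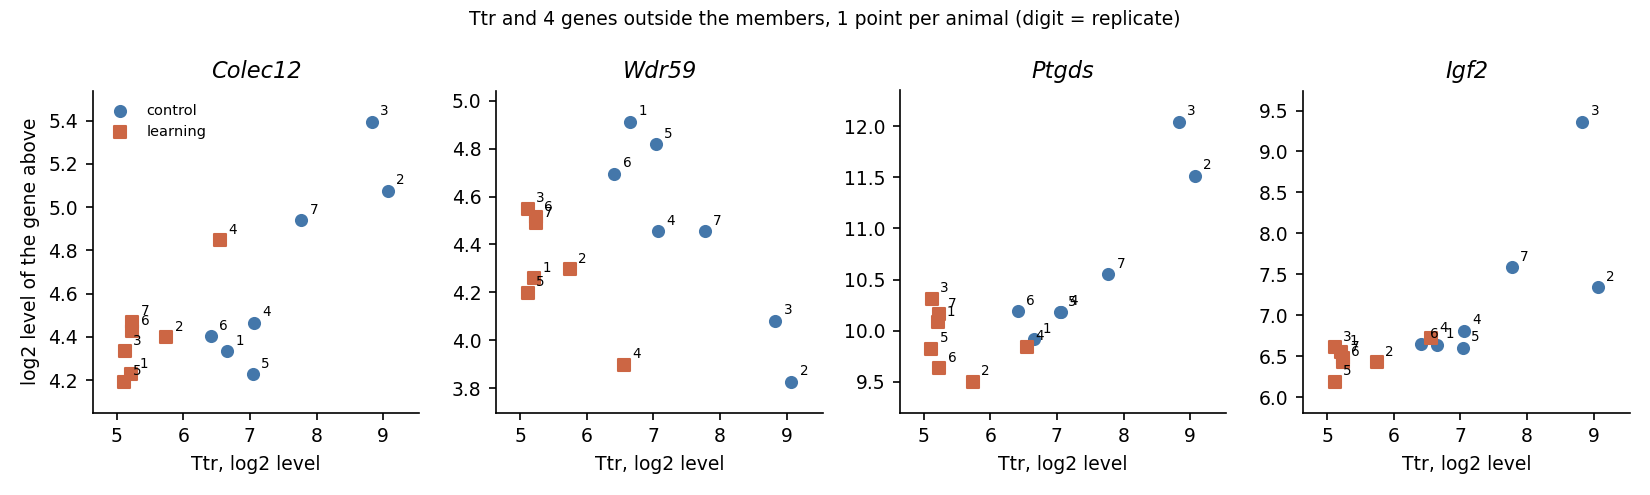
Log2 level of Colec12, Wdr59, Ptgds and Igf2 (y axes, separate scales) against the log2 level of Ttr (x axis), with 1 point per animal labelled by its replicate number. Learning animal 4, the highest in Ttr of its group (6.56), is also the highest of its group in Colec12 (4.85) and the lowest in Wdr59 (3.90), and in Ptgds (9.84) it lies inside the range of its group.

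Markers of the leptomeninges had negative differences in all 10 genes measured above the cutoff, and none was called. For 1 of them, Aldh1a2, this was set by the filter, since it passed the cutoff through the control group (mean 4.07, with 5.23 in animal 3) and had a learning mean of 3.85, below it. The median difference of the 10 was -0.28, against -0.03 over 6836 genes at their brightest tested probe set, of which 4371 were negative. Their median correlation with Ttr after subtraction of group means was 0.58, and 9 of 10 were positive, against a median of -0.02 and 3241 positive values over the 6836. The groups differed in sign here. Within the control group only Lum (-0.32) had a negative correlation with Ttr. Within the learning group only Igf2 (0.55) and Slc6a20 (0.24) had a positive one, and Gjb2 had the lowest (-0.88). Without Aldh1a2 the medians over 9 genes were -0.31 and 0.66. Ptgds, a prostaglandin synthase of the membranes that is secreted into the fluid, had log2 levels of 10.66 ± 0.81 in control and 9.91 ± 0.29 in learning animals (SD, n = 7 each), a difference of -0.75 (adjusted p = 0.168). Its highest values were 12.05 and 11.52 in control animals 3 and 2, the same animals that were highest in Ttr, and the other 12 animals lay between 9.5 and 10.55. Its correlation with Ttr was 0.93 in control animals and -0.36 in learning animals, and its slope of 0.53 did not pass (adjusted p = 0.495). Igf2, which is in both the leptomeningeal and the wider choroid plexus list, was 7.29 ± 0.99 in control and 6.49 ± 0.17 in learning animals, a difference of -0.80 (adjusted p = 0.207), with 9.36 in control animal 3. Lum, a proteoglycan of fibroblasts, differed by -0.41 and ran against Ttr, with a correlation of -0.34. Of the list genes left out as dim and not tested, Col1a1 and Col3a1, named after their values were seen, had 7.02 and 6.92 in control animal 3. In all other animals Col1a1 lay between 3.09 and 3.45 and Col3a1 between 2.70 and 2.78. The dim Slc22a6, at 2.74, was not raised in that animal.

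The mean log2 level of the leptomeningeal list was 5.83 to 7.03 in control animals, with animal 3 highest, and 5.63 to 6.0 in learning animals. The group means differed by -0.37, or by -0.23 without control animal 3. In control animals that mean correlated with Ttr at r = 0.76 (two-sided exact permutation p = 0.0280, rho = 0.64 with exact p = 0.139) and in learning animals at r = -0.72 (exact p = 0.0601, rho = -0.57 with exact p = 0.20). After adjustment over the 22 relations of this kind none passed (0.205 and 0.331 for r, 0.791 for each rho), and the values without the 2 animals farthest in Ttr were 0.47 and -0.38. Learning animal 4, the highest of its group in Ttr, had the lowest leptomeningeal mean of all 14 animals, 5.63. The part of membrane tissue in the Ttr levels was not tested.

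The 8 measured genes of the wider choroid plexus list all had negative differences, as did 4371 of the 6836 genes, and none was called. The median was -0.10, and 2 of the 8, Msx1 (SE 0.04) and Calml4 (SE 0.04), lay within 0.01 of 0. The correlation with Ttr had a median of 0.29, and 7 of 8 were positive. The brightest were the serotonin receptor Htr2c (difference -0.37, adjusted p = 0.116), the peptide transporter Slc15a2 (-0.06) and Igf2, and all 3 are also expressed outside the plexus. The mean over the list was 5.53 to 6.05 in control and 5.43 to 5.58 in learning animals, again with control animal 3 highest. It differed by -0.19, or by -0.13 without that animal. In control animals it correlated with Ttr at r = 0.76 (exact p = 0.0194, rho = 0.82 with exact p = 0.0341), or 0.73 without animals 2 and 3, and in learning animals at r = -0.05 (exact p = 0.890, rho = 0.32 with exact p = 0.498). Adjusted over the 22 relations, the control values were 0.205 and 0.375. Of 25 genes of ependymal cilia, the motile hairs of the ventricle lining, 3 were on the array and only Rsph1 lay above the cutoff, with a difference of -0.01.

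**Figure D5:**
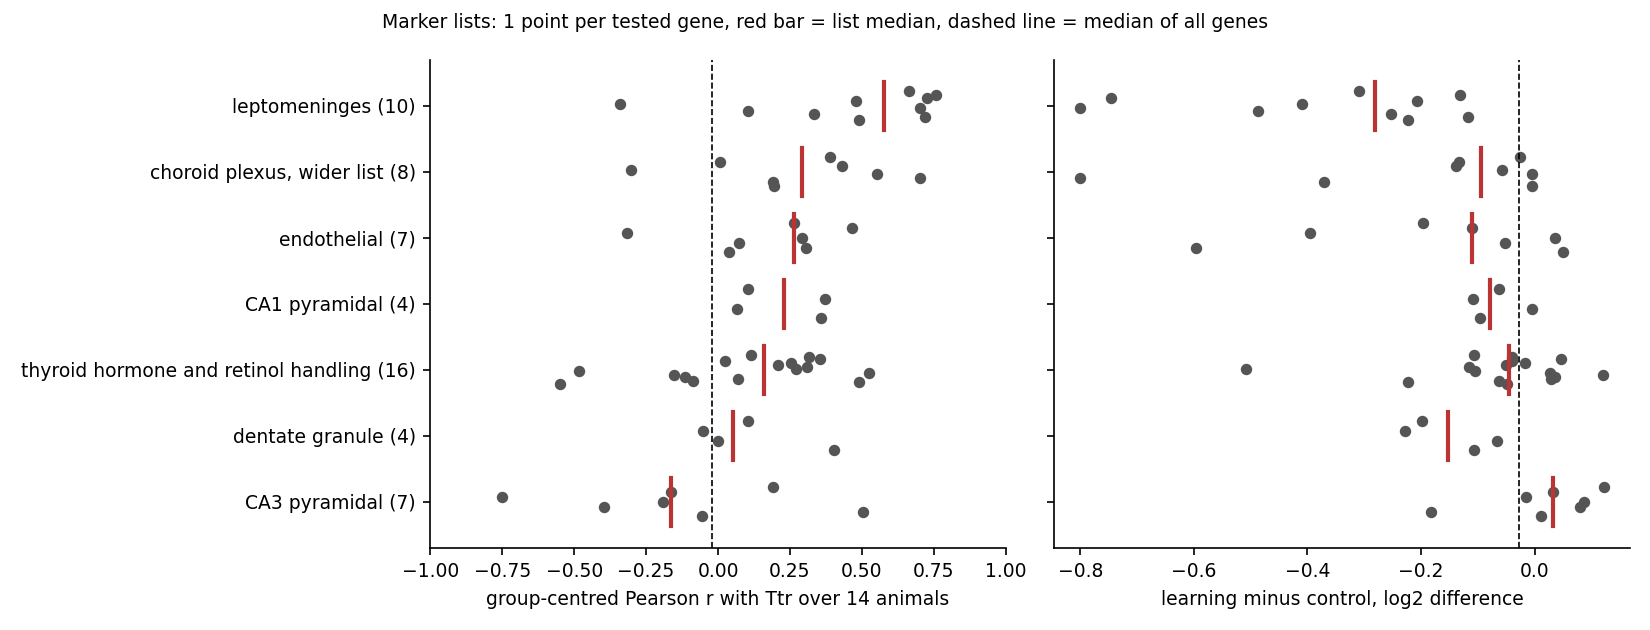
Correlation with Ttr over 14 animals after subtraction of group means (left) and learning minus control difference in log2 level (right) for each tested gene of 7 marker lists, with the number of genes in brackets, the list median as a red bar and the median of all genes as a dashed line. The leptomeningeal list has the highest median correlation (0.58) and the lowest median difference (-0.28), and the CA3 list lies at -0.16 and 0.03. Within the learning group alone, most leptomeningeal genes had a negative correlation with Ttr.

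Genes above the cutoff that handle or respond to the cargo of transthyretin, thyroid hormone and retinol, had a median difference close to that of all genes. Of 32 listed genes 29 were on the array and 16 lay above the cutoff, and 0 were called in either direction by limma (3 of 16 had an unadjusted p under 0.05, as did 1274 of the 6836 genes). Their median difference was -0.04, near the -0.03 of all genes, and 11 of 16 were negative, Aldh1a2 among them. The brightest were Nrgn, a calmodulin-binding protein regulated by thyroid hormone (0.12, adjusted p = 0.0837), Crym, which binds the hormone in the cell (-0.06), and Klf9, a hormone-induced factor (0.04). Of the 16, the retinoid receptor Rxrg was the lowest (-0.51, limma adjusted p = 0.0784, named after its value was seen). The thyroid hormone receptor Thra (-0.04) and the hormone transporter Slco1c1 (-0.04) differed little. Rbp4, a retinol-binding protein also named after its values were seen, was dim and not tested. Its log2 level was 3.85 ± 0.69 in control and 3.29 ± 0.16 in learning animals (SD, n = 7 each), a difference of -0.56. It correlated with Ttr at 0.68 after subtraction of group means, with its highest values, 5.09 and 4.31, in control animals 3 and 2. Within groups r was 0.77 in control and 0.18 in learning animals. Crym, Klf9 and Nrgn had correlations with Ttr of -0.09, -0.11 and -0.15, whereas Aldh1a1, a retinal dehydrogenase, had -0.55.

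Markers of the subfields and of vessels are given as the remaining tissue in the dissection. CA3 markers had a median difference of 0.03 and a median correlation with Ttr of -0.16 over 7 genes, and their mean per animal was 9.58 ± 0.03 in control and 9.60 ± 0.09 in learning animals. Dentate granule markers had a median difference of -0.15 over 4 genes, all negative, and a median correlation of 0.05. The brightest of them, Calb1, Il16 and Dgkh, differed by -0.11, -0.23 and -0.07. CA1 markers had -0.08 and 0.23 over 4 genes, with -0.11 in Mpped1, -0.06 in Wfs1 and -0.10 in Fibcd1. Endothelial markers had -0.11 and 0.26 over 7 genes, of which Adgrl4, a receptor of vessel growth, was the only 1 called, at -0.60 (limma adjusted p = 0.0366), where 3.35% of all probe sets were called. Calls over all probe sets numbered 319, and 39 with the Gapdh covariate. The brightest endothelial markers, Cldn5, Slco1a4 and Esam, differed by -0.05, -0.11 and 0.04. The others, Kdr, Vwf and Abcb1a, differed by -0.40 (limma adjusted p = 0.0989), -0.20 and 0.05. The endothelial mean per animal was 5.93 ± 0.14 in control and 5.75 ± 0.16 in learning animals.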

How the data were processed

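The authors deposited a log2 expression level for each probe set on each array, made with GCRMA per the submitters' processing notes. The GCRMA settings were not given in the sources used here. The log2 scale was read from the values, and low values are compressed by the background model. The labels call the animals biological replicates. No scan date was used, so batches were not tested, and precision is set by the number of arrays.

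Of 15923 probe sets, 57 Affymetrix controls and 6346 with a mean below the 40th percentile were left out. The other 9520 were fitted with limma 3.58.1 in R 4.3.3, with Benjamini-Hochberg adjustment over the whole table and a threshold of 0.05. The platform annotation named 1 gene for 12783 probe sets, several for 312 and none for 2771, and 12748 of the first matched RefSeq (GRCr8) by Entrez ID. A probe set that names Ttr beside other genes was left out. List genes entered with their brightest probe set. By rule the text names all members, the 10 genes most and 5 least like Ttr and, of each list, called genes and the 3 brightest. Other list genes, and those ranked by likeness to Igfbp2, were named outside this rule with their values known. Members and lists were chosen with earlier results of these data known. Exact tests ran over 3432 assignments of arrays or 5040 orders of 7 values.

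On simulated data with 9520 probe sets, learning minus control recovered 78% of changes of 0.4 and 99% of changes of 1, with 6.81% false calls. With 9519, co-variation recovered 62% of slopes of 0.2 and 95% of slopes of 0.5. The changed probe sets were drawn at random, with independent noise at each one's own SD within groups, whose median was 0.11. These shares therefore do not apply to a probe set as variable as that of Igfbp2 (SD 0.67), nor to noise shared among probe sets. Alternatives were other dim filters, quantile normalization, median centring, trended and robust or weighted fits, a replicate block, the Gapdh covariate and each array left out. Added after seeing the data were the hexokinase covariate and leaving out control animals 2 and 3, or 3 alone for list means, and leaving out list genes above the cutoff in 1 group only.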

Additional observations from a re-analysis of the deposited data

Results flagged for a closer look

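In 12 of 52 groups of 7 values examined, the highest or lowest animal stood apart from the others by Dixon's 95% criterion. Chance alone meets it in about 5% of groups of normally distributed values. Of the 30 groups of member probe sets 5 did so, all but that of Igfbp2 from dim probe sets. The share over all probe sets was not computed, so no excess among the members is read from this. Control animal 3 had Igfbp2 at 8.60 and Cldn2 at 2.94 on the log2 scale, the latter a dim probe set, and also the highest mean of the wider choroid plexus list, 6.05, and of the leptomeningeal list, 7.03. Among dim probe sets, control animal 6 had the brightest Prlr probe set at 3.34, learning animal 3 had another of Prlr at 2.61 and control animal 7 had the dimmest Kcne2 probe set at 2.16.

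Control animal 5 stood apart in RNA measures, with a 3'/5' log2 difference of 0.638 for Gapdh and 2.57 for hexokinase and a median correlation of 0.989 with the other arrays. Its Ttr level, 7.04, was close to the control median. The mean of the CA1 list was lowest among learning animals in animal 4, at 7.18, though control animal 5 had 7.10. The mean of the thyroid hormone and retinol list was lowest among controls in animal 4, at 7.33.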

How the results depend on the processing

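The Ttr difference stayed negative in all 24 alternatives, between -2.31 and -1.53. Ttr was selected on this contrast, so its calls say nothing of its stability. With the Gapdh covariate its difference was -2.31 and its limma adjusted p 0.0512, so 0 member probe sets were then called. Each animal left out in turn gave -2.28 to -1.83 for Ttr. The number of probe sets called between the groups, 319, was 158 with no filter, 39 with the Gapdh covariate, 177 with the hexokinase covariate and 89 without control animals 2 and 3. With each animal left out it ran from 163 to 352. It was under the main count divided by 1.5 without control animals 1 (163), 2 (166) or 3 (167) and without learning animals 3 (188), 4 (164), 6 (171) or 7 (188). The number called with Ttr as covariate, 2, was 0 with no filter, with the 60th percentile filter, with the Gapdh covariate and without control animals 2 and 3 (357 to 1161 at unadjusted p under 0.05 in limma), 1 with array weights and 0 to 2 with each animal left out. The number with a slope that differed between groups, 0, was 1 with no filter and 0 to 6 with each animal left out, the highest being 6 without learning animal 2 and 4 without learning animal 4.

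Same-numbered animals of the groups had correlations of their deviations between -0.16 and 0.13, and 3 of 14 animals matched their own number best, so the number was taken as a name. With the replicate block the count between groups was 313, Ttr was -2.09, and the co-variation count was 0 (619 at unadjusted p under 0.05). Colec12 lost its call there (adjusted p = 0.0749), as with the Gapdh covariate (0.0790) and with no filter (0.134).

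Dim probe sets lie near the floor of the array, so 5 member genes could not be read. All values rest on 7 animals per group.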
